A study of Mus musculus with 66 samples.

Results

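In mouse small intestinal organoids, 47 regions carried much of the activating histone mark H3K27ac with little H3K4me3, little H3K27me3 and few reads of the transcription factor Hnf4g. They were chosen by these readouts from the 94469 regions of the union of ATAC and ChIPmentation peaks. A region was kept if its mean over 9 H3K27ac libraries was in the top 15%, its mean over 9 H3K4me3 libraries was outside the top 30%, its mean over 9 H3K27me3 libraries was outside the top 10%, and it held fewer than 10 reads of Hnf4g in the EN culture. Levels of these marks and of Hnf4g in EN are therefore a description of the choice. DNA accessibility by ATAC-seq, RNA, the sequence of the regions and Hnf4g in the other cultures played no part in it. Each region is named here after the protein-coding gene with the nearest start site, which is a label of position and not of a regulated target.

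Enhancers are stretches of DNA away from start sites that raise transcription of genes in cis. Active ones are accessible and their flanking nucleosomes carry H3K27ac, whereas H3K4me3 marks active promoters and H3K27me3 marks chromatin silenced by Polycomb. Hnf4g is a nuclear receptor that binds such elements in enterocytes, the absorptive cells of the villus, together with its paralog Hnf4a.

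All organoids were Lgr5 GFPDTR/+, an allele that places a reporter with a toxin receptor at the stem cell gene Lgr5. ENR organoids grew in medium with epidermal growth factor, Noggin and R-Spondin-1. CV organoids grew in ENR with CHIR99021 at 3 µM, an inhibitor of GSK3 that activates Wnt signalling, and valproic acid at 1 mM, an inhibitor of histone deacetylases, and were enriched for stem cells. EN organoids grew without R-Spondin-1, for a shorter time than CV by the study's methods, and were depleted of stem cells. ATAC and RNA had 4 libraries per culture, each histone mark had 3, and Hnf4g had 1 each. Whether the libraries came from separate cultures was not stated, so p-values measure the spread between these libraries, which may be technical. The values are bulk measurements of cultures that differ in cell makeup, in which fewer cells of a type and less signal per cell cannot be told apart. Only CV held CHIR99021 and valproic acid. In comparisons with CV, H3K27ac included, effects of these compounds cannot be told apart from cell makeup. Of the stem cell and Wnt list, 14 of 20 genes were tested in RNA and all 14 were lower in EN than in CV, and all 18 genes of the enterocyte list were higher. Hnf4g mRNA rose from 122 ± 5.03 CPM (read counts scaled by sequencing depth, mean ± SD, n = 4) in CV through 369 ± 9.20 in ENR to 1406 ± 105 in EN (log2 fold change EN against CV 3.52, adjusted p = 5.1e-17, edgeR). Hnf4a mRNA had 726 ± 15.1 CPM in CV and 703 ± 12.3 CPM in EN (log2 fold change -0.05, adjusted p = 0.15).

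The label distal held for most but not all of the 47 regions. Of them, 43 lay more than 1000 bases from any annotated start site, and the median distance was 18.9 kb. The other 4 lay within 500 bases, and 2 of these, at Gm5444 and at Nadk, an enzyme that makes NADP, overlapped a coding start site. Among all regions, 23.1% lay within 1000 bases of a start site. Introns held 30 of the 47, exons 2, non-coding genes 2 and intergenic sequence 13. In 7 regions the nearest region in the top 30% of H3K4me3 was within 1000 bases. The part of such flanks in their H3K27ac scores was not tested. The 47 regions had 47 different nearest genes on 19 chromosomes, so no gene had more than 1, and the closest pair was 137 kb apart.

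The regions sat close to the limit for H3K27ac. The limit was a mean normalized score of 23.0, and the 47 means ran from 23.1 to 48.3 with a median of 24.9, of which 25 were under 25. Regions that met the other criteria just outside this limit reached 23.0. For comparison, the median was 61.2 in the 13822 regions in the top of both H3K27ac and H3K4me3. Scores are per region and were not scaled by length here. Median lengths were 502 bases for the 47 and 1315 bases for that set. The 5 highest means were 48.3 near Ezr, which encodes the microvillus linker ezrin, 46.0 near Ttll10, of the tubulin tyrosine ligase-like family, 45.4 in Mtmr6, a phosphoinositide phosphatase, 36.7 in Shank2, a scaffold protein, and 32.4 near Tfrc, the transferrin receptor. Mean ATAC scores, which the choice did not use, ran from 1.67 to 115 with a median of 27.7, and 5 of the 47 had a mean under 10. Over all regions, which had a shorter median length of 220 bases, the median ATAC score was 5.75.

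The central 300 bases are shown for 6 regions that lead the rankings described next, from the mm9 assembly on the plus strand. The Ezr region had the highest H3K27ac, and the Slc37a2 and 2900026A02Rik regions had the largest rise and the largest fall in accessibility from CV to EN. The Ttll10 region had the largest fall from ENR to EN, the Snx29 region the largest excess of CV over ENR and the Mtmr6 region the largest rise in H3K27ac. Capitals mark matches to any of the 20 motifs described with the motif shares, and a window without capitals held none of them.
Ezr region, chr17:7013062-7013361: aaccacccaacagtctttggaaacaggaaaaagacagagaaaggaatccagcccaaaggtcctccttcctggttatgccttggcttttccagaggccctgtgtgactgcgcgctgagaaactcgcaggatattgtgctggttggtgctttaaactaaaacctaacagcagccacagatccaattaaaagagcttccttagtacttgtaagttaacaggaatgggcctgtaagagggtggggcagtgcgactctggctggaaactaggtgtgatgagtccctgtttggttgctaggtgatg
Slc37a2 region, chr9:37053661-37053960: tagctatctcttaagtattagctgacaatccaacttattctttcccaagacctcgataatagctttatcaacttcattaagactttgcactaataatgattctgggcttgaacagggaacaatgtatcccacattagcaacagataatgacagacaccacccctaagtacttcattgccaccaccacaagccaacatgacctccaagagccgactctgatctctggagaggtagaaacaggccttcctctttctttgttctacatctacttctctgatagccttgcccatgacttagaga
2900026A02Rik region, chr5:113562218-113562517: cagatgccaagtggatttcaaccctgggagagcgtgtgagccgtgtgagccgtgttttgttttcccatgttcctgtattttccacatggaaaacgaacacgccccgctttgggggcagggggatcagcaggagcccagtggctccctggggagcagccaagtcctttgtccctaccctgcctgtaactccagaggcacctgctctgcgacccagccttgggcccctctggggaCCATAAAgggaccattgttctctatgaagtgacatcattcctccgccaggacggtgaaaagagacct
Ttll10 region, chr4:155438310-155438609: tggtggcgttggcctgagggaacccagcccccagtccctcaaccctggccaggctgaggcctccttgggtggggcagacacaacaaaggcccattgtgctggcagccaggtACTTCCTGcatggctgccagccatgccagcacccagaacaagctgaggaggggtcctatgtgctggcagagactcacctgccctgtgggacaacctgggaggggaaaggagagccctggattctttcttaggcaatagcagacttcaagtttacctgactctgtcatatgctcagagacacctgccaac
Snx29 region, chr16:11456384-11456683: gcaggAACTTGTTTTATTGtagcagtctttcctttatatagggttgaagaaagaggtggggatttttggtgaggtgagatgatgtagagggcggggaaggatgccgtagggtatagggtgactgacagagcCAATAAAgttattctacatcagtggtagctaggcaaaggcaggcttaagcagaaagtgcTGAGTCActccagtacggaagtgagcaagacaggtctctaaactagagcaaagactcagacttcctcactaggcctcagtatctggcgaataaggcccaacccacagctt
Mtmr6 region, chr14:60905156-60905455: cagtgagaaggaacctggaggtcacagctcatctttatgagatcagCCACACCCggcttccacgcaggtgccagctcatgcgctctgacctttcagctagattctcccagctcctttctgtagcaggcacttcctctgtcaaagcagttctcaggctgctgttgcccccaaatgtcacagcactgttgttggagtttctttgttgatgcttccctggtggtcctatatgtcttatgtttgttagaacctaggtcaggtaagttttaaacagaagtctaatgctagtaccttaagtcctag
The Snx29 window held a GRHL match whose last base was the first of a CDX match, another CDX match and an AP-1 match. A CDX match lay in the 2900026A02Rik window, a KLF match in the Mtmr6 window and an ETS match in the Ttll10 window.

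Accessibility of the 47 regions was more often lower than higher in EN. Between EN and CV, 26 were lower and 5 higher (limma on log2(score + 1), adjusted p under 0.05), while over all 94166 regions tested 15.6% were lower and 19.6% higher. Between EN and ENR, 27 were lower and 2 higher, with 12.5% lower and 11.6% higher over all regions. Between CV and ENR, 9 were lower and 5 higher in CV, with 10.7% lower and 5.11% higher over all regions. The median log2 difference was -0.54 for EN against CV, -0.88 for EN against ENR and -0.18 for CV against ENR, beside 0.05, -0.01 and -0.07 over all regions. The excess of falls was smaller under stricter limits on Hnf4g: of the 16 regions with under 10 EN reads per 1000 bases, 6 were lower and 4 higher in EN than in CV, and of the 9 with under 5 EN reads, 3 were lower and 2 higher. The first 2 comparisons share the EN libraries, and each comparison shares a culture with the others. The summed ATAC scores of EN libraries, 1993594 to 2109261, were above those of CV libraries, 1752385 to 1840402. The Hnf4g limit was applied in EN, the culture in which accessibility was lower, and how far accessibility in EN set that read count was not tested.

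**Figure D1:**
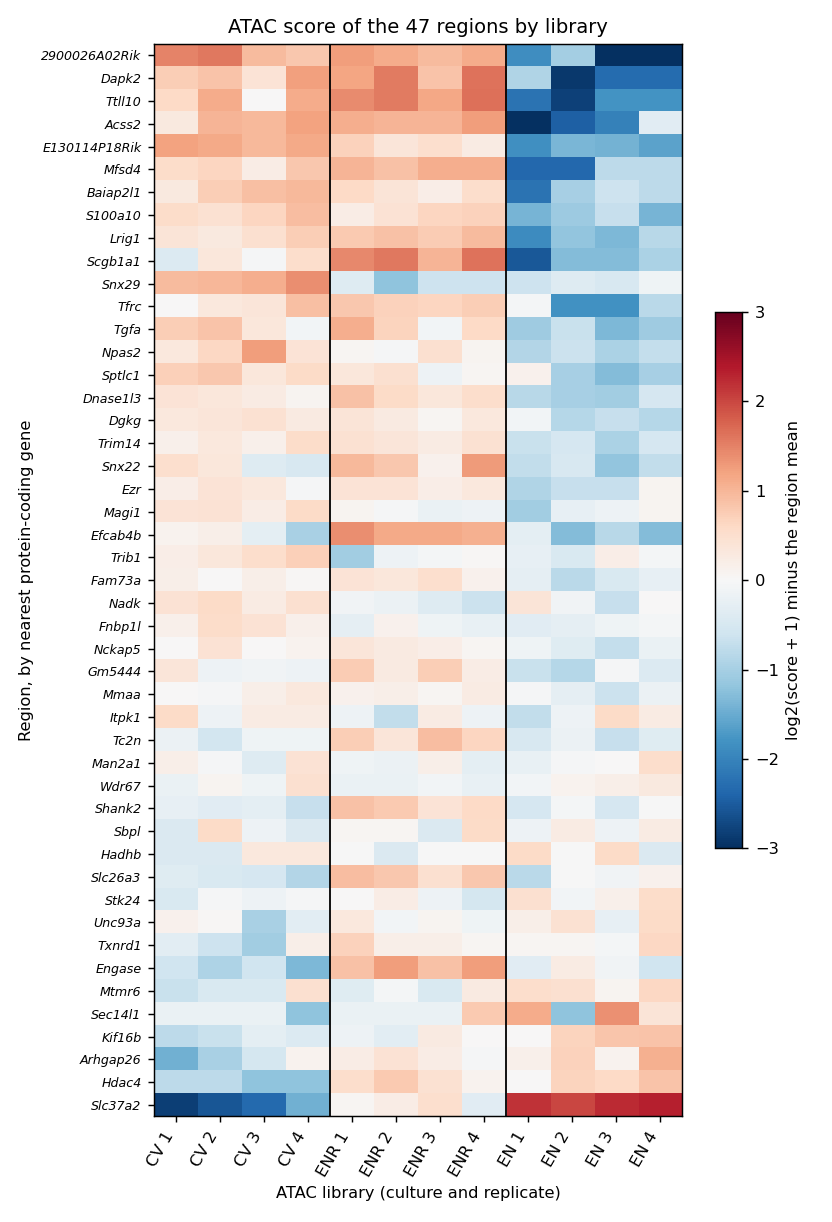
ATAC score of each of the 47 regions (rows, named by nearest gene and ordered by the EN minus CV difference) in 12 libraries (columns), as log2(score + 1) minus the mean of the region over all libraries; red is above and blue below that mean. Most rows are blue in the 4 EN libraries, the top rows in all 4, and the bottom row, Slc37a2, runs the other way.

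In 4 of the 5 largest falls in accessibility from CV to EN, the EN scores were at most 12. At the region in an intron of 2900026A02Rik, an uncharacterized gene, the 4 ATAC scores were 50, 53, 34 and 31 in CV, 42, 38, 34 and 38 in ENR, and 4, 8, 1 and 1 in EN. CV and ENR libraries overlapped, and all EN libraries were below both. The log2 difference from CV to EN was -3.52 (SE 0.36, adjusted p = 8.6e-07).
At the region in an intron of Dapk2, a calcium/calmodulin-regulated kinase linked to cell death, the scores were 24, 26, 19 and 34 in CV, 33, 43, 26 and 45 in ENR, and 7, 1, 2 and 2 in EN. The EN libraries again lay below the others without overlap, with a log2 difference from CV of -2.92 (SE 0.33, adjusted p = 2.3e-06). The intergenic Ttll10 region had 20, 29, 13 and 29 in CV, 36, 40, 30 and 43 in ENR, and 2, 1, 3 and 3 in EN. Its log2 difference was -2.86 between EN and CV (SE 0.28, adjusted p = 4.0e-07) and -3.60 between EN and ENR (adjusted p = 1.5e-07).
The region in an intron of Acss2, a synthetase of acetyl-CoA from acetate, had 19, 32, 31 and 37 in CV, 34, 32, 32 and 38 in ENR, and 1, 2, 3 and 12 in EN (-2.83 from CV to EN, SE 0.39). EN replicate 4 had the highest of the EN scores and was still below every CV and ENR library. The E130114P18Rik region was the most accessible of these, with 189, 179, 160 and 180 in CV, 131, 105, 116 and 96 in ENR, and 22, 31, 30 and 26 in EN. Its scores stepped down from CV to ENR to EN without overlap, by 0.66 between CV and ENR (adjusted p = 0.0020) and by 2.66 between CV and EN on the log2 scale (adjusted p = 4.2e-10).

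The Slc37a2 region went the other way. It lay in an intron of Slc37a2, a sugar phosphate exchanger, 8.68 kb from the coding start site, and was the longest of the 47 at 1010 bases. Its ATAC scores were 4, 5, 6 and 12 in CV, 36, 40, 49 and 27 in ENR, and 157, 140, 166 and 176 in EN. The cultures did not overlap, and the log2 difference was 4.47 from CV to EN (SE 0.24, adjusted p = 7.2e-10) and 2.07 from ENR to EN (adjusted p = 8.6e-06). With 9 Hnf4g reads in EN it was at the upper limit of the choice. At the region in an intron of Hdac4, a class IIa histone deacetylase, CV stood apart instead. The scores were 7, 7, 5 and 5 in CV, 19, 23, 18 and 14 in ENR, and 13, 21, 20 and 24 in EN, a log2 difference of 1.53 from CV to EN (SE 0.23, adjusted p = 4.5e-05) beside 0.06 from ENR to EN (adjusted p = 0.88). The region in an intron of Kif16b, an endosomal kinesin, had 46, 50, 65 and 60 in CV and 80, 127, 143 and 145 in EN (1.12, SE 0.18, adjusted p = 7.9e-05), without overlap, and its ENR scores of 72, 64, 96 and 80 overlapped EN.

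Other regions differed between CV and ENR. At the region in an intron of Snx29, a sorting nexin, the scores were 97, 100, 107 and 132 in CV, 38, 21, 32 and 32 in ENR, and 32, 38, 35 and 45 in EN. Only CV was high, with a log2 difference from ENR of 1.81 (SE 0.17, adjusted p = 2.5e-06). The Nadk and Trib1 regions were also higher in CV than in ENR, by 0.75 each on the log2 scale (adjusted p = 0.011 and 0.044), without overlap. The Engase region had 4, 3, 4 and 2 in CV, 13, 17, 13 and 17 in ENR, and 5, 8, 6 and 4 in EN. It was high in ENR alone, and CV lay below ENR by a log2 difference of -1.93 (SE 0.27, adjusted p = 9.3e-05). Engase encodes a cytosolic enzyme that releases glycans from proteins.

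The same histone criteria without the Hnf4g limit gave 284 regions, and the sets differed in direction by their Hnf4g reads in EN. Of the 166 with 10 to 49 reads, 84 were more accessible and 16 less accessible in EN than in CV, with a median log2 difference of 0.55. Of the 71 with 50 or more reads, 49 were more and 3 less accessible, with a median of 0.95. Against ENR, the medians were 0.19 and 0.65, beside -0.88 for the 47. No test was made over regions, which were grouped by a measurement in one of the compared cultures. At the limit itself, the 9 members with 9 reads had a median of -0.53 with 6 lower and 1 higher, and the 10 regions with 10 reads had a median of 0.21 with 1 lower and 2 higher. Below it, the 9 members with 0 to 4 reads had a median of -0.40 and the 38 with 5 to 9 reads one of -0.56. Above it, 29 regions with 10 to 14 reads had a median of 0.17 and 44 with 15 to 24 reads one of 0.75. Length and base composition were close, with median lengths of 502, 483.5 and 540 bases and median GC contents of 48.5%, 48.6% and 48.96% for the 47 and the sets of 166 and 71.

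**Figure D2:**
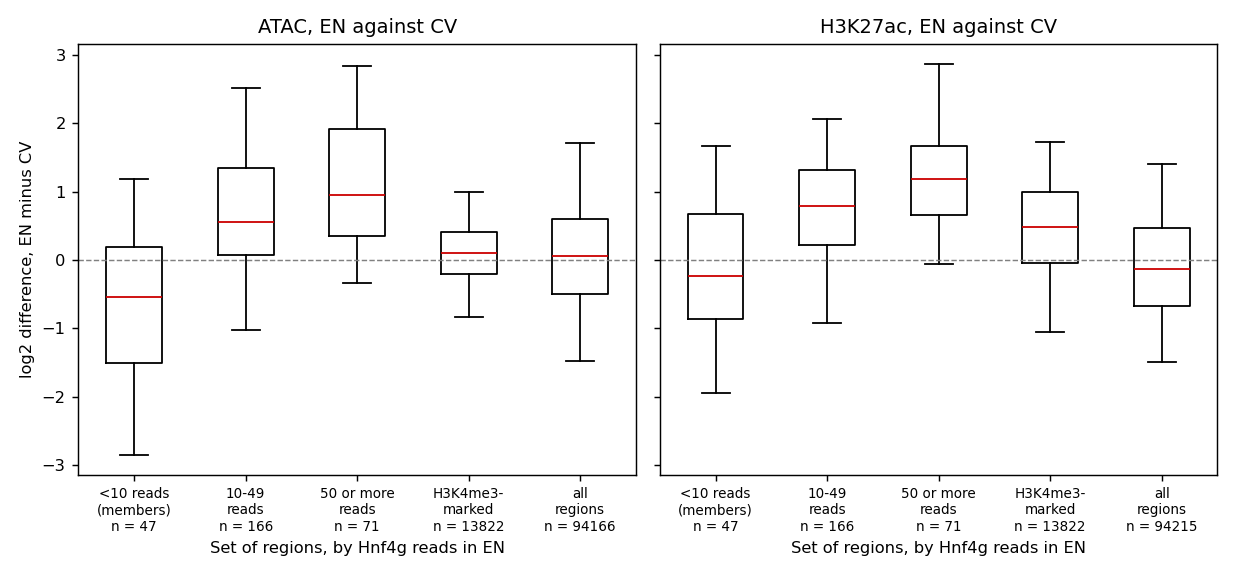
Log2 difference from CV to EN in ATAC (left) and H3K27ac (right) for the 47 members, for regions of the same histone criteria with 10 to 49 and 50 or more Hnf4g reads in EN, for regions in the top of both H3K27ac and H3K4me3, and for all regions tested. Boxes span the quartiles with the median in red and whiskers the 5th to 95th percentiles; the medians for ATAC are -0.54, 0.55, 0.95, 0.10 and 0.05 from left to right.

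H3K27ac was part of the choice, through the mean of the same 9 libraries, so its differences between cultures are given as a description. Only 3 of the 47 regions were above the limit of 23.0 in the mean of each culture. Without the EN libraries 17 would not have passed, and without the CV libraries another 17. Between EN and CV, 9 were lower and 4 higher, with 1.96% lower and 5.07% higher over all 94215 regions tested. Between EN and ENR, 4 were lower and 2 higher, with 0.353% lower and 1.22% higher over all regions. Between CV and ENR none was called by limma, with 1.29% lower and 0.541% higher in CV over all regions, and 5 had an unadjusted p under 0.05. The standard error of the difference from CV to EN had a median of 0.46 over the 47, beside 0.23 in ATAC, so fewer calls do not show smaller changes. The median log2 difference from CV to EN was -0.24, beside -0.14 over all regions, 0.79 in the regions with 10 to 49 Hnf4g reads and 1.19 in those with 50 or more. The calls depend on the fit. A fit by limma that blocked on replicate number called 0 of the 94215 regions, so all calls of the 47 were lost. Between EN and CV, 13 of the 47 were at an unadjusted p under 0.05 in that fit. Some H3K27ac libraries had no partner of the same number, so the block left little from which to estimate the spread. Its loss of calls therefore cannot show whether the calls hold. Without the trend of the spread on the mean, 3 were lower and 0 higher between EN and CV and none was called between EN and ENR, and without CV replicate 5 or EN replicate 4 the 9 lower calls became 3 and 5. Without EN replicate 2, 3 or 4 the 4 higher calls became 1, and without any ENR or EN library the 4 lower calls against ENR became 0.

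The largest falls in H3K27ac were in 2900026A02Rik, Tgfa, Gm5444 and Dapk2 and near E130114P18Rik. At the 2900026A02Rik region the 3 scores were 38, 52 and 32 in CV, 24, 18 and 27 in ENR, and 3, 8 and 10 in EN, without overlap of EN with the others. The log2 difference from CV to EN was -2.48 (SE 0.49). At the region in an intron of Tgfa, which encodes a ligand of the epidermal growth factor receptor, the scores were 30, 54 and 37 in CV, 33, 21 and 27 in ENR, and 5, 10 and 7 in EN (-2.31, SE 0.47). All EN libraries were again the lowest. The Gm5444 region, over a start site, had 35, 42 and 31 in CV, 42, 29 and 25 in ENR, and 7, 8 and 11 in EN (-1.95, SE 0.45). The Dapk2 and E130114P18Rik regions fell by 1.92 and 1.85 on the log2 scale, and the Ttll10 region by 1.83. Of the 9 regions called lower, 6 would not have passed the H3K27ac limit without the CV libraries.

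The 4 rises in H3K27ac were in Mtmr6, Hadhb, Slc37a2 and near Itpk1. The last 3 of these passed the H3K27ac limit only through the EN libraries, where they were high. The Mtmr6 region had 2, 15 and 41 in CV, 46, 31 and 38 in ENR, and 92, 66 and 78 in EN, with a log2 difference from CV to EN of 2.64 (SE 0.55). CV libraries spread widely there, from 2 in CV replicate 3 to 41 in CV replicate 5. The Slc37a2 region had 12, 20 and 22 in CV, 14, 10 and 14 in ENR, and 67, 55 and 53 in EN, a difference of 1.68 from CV (SE 0.44). EN stood above both other cultures without overlap. The Hadhb region, in an intron of the gene for the beta subunit of the mitochondrial trifunctional protein of fatty acid oxidation, had 18, 5 and 21 in CV and 31, 62 and 50 in EN (a log2 difference of 1.79). The Itpk1 region, near the gene for an inositol phosphate kinase, had 7, 25 and 10 in CV and 51, 43 and 30 in EN (a log2 difference of 1.65). Both were barely accessible, with ATAC scores of at most 5 in every library, and lay 15 and 87 bases from a region in the top 30% of H3K4me3.

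Accessibility and H3K27ac were set side by side at the regions called in both, as a description, since H3K27ac was used in the choice. From CV to EN, 8 of the 9 regions with lower H3K27ac had lower ATAC scores, and 2 of the 4 with higher H3K27ac had higher ATAC scores. The ninth was the Efcab4b region, where ATAC missed the threshold at a log2 difference of -0.68 (adjusted p = 0.050). Of the 26 regions with lower ATAC scores, 18 had no call in H3K27ac. Across the 47 regions, the log2 differences of both readouts from CV to EN correlated with Pearson's r = 0.62 and a Spearman coefficient of 0.59. Those from ENR to EN had 0.77 and 0.77, and those between CV and ENR only 0.10 and 0.14. In the 71 regions with 50 or more Hnf4g reads, the differences from CV to EN had 0.47 and 0.43. These values are a description over regions that share the same libraries. No region was called in opposite directions by the 2 readouts. At the Lrig1 region, as at some others, the differences had opposite signs, and only that in ATAC was called. Lrig1 encodes a negative regulator of ErbB receptors found in intestinal stem cells and was the one gene of the 8 fixed lists with a region among the 47. It is on the stem cell and Wnt list, whose genes were nearest to 399 of all 94469 regions. The distance to its coding start site was 180.8 kb, and the nearest annotated start site of any kind lay at 54.0 kb. The region had ATAC scores of 52, 49, 56 and 67 in CV, 69, 74, 68 and 78 in ENR, and 10, 17, 15 and 22 in EN (-1.78, SE 0.19, adjusted p = 9.3e-07). Its H3K27ac scores were 9, 13 and 22 in CV, 26, 24 and 35 in ENR, and 25, 28 and 36 in EN. The log2 difference from CV to EN of 1.04 (SE 0.45) was not called by limma (adjusted p = 0.18).

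**Figure D3:**
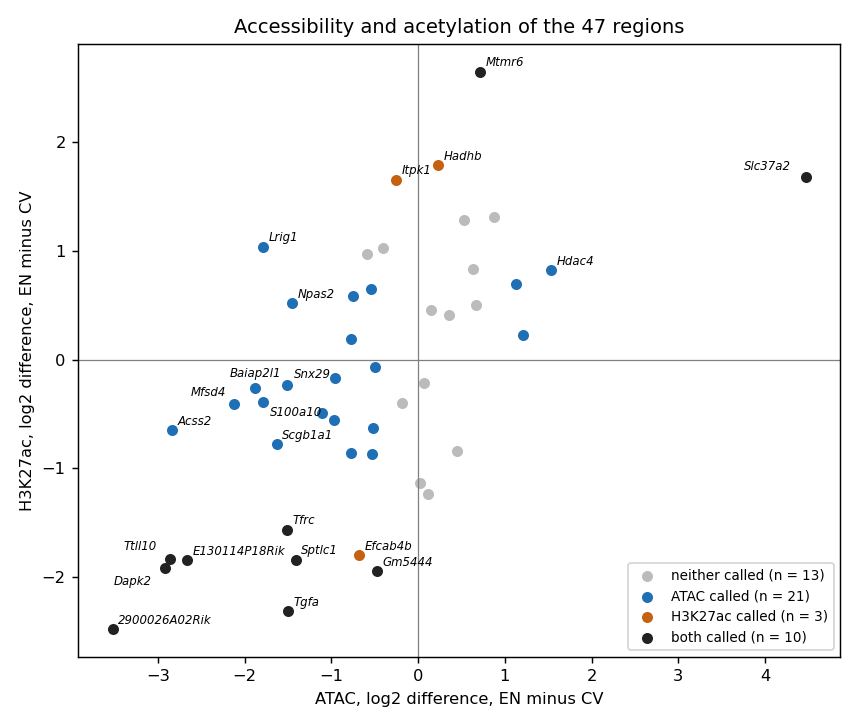
Log2 difference from CV to EN in ATAC (horizontal) and H3K27ac (vertical), each point 1 of the 47 regions, coloured by which of the readouts was called at an adjusted p under 0.05 and named by nearest gene where H3K27ac was called or the ATAC difference was large. The 10 regions called in both lie in the lower left (8) and upper right (2), and Lrig1 lies in the upper left.

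**Figure D4:**
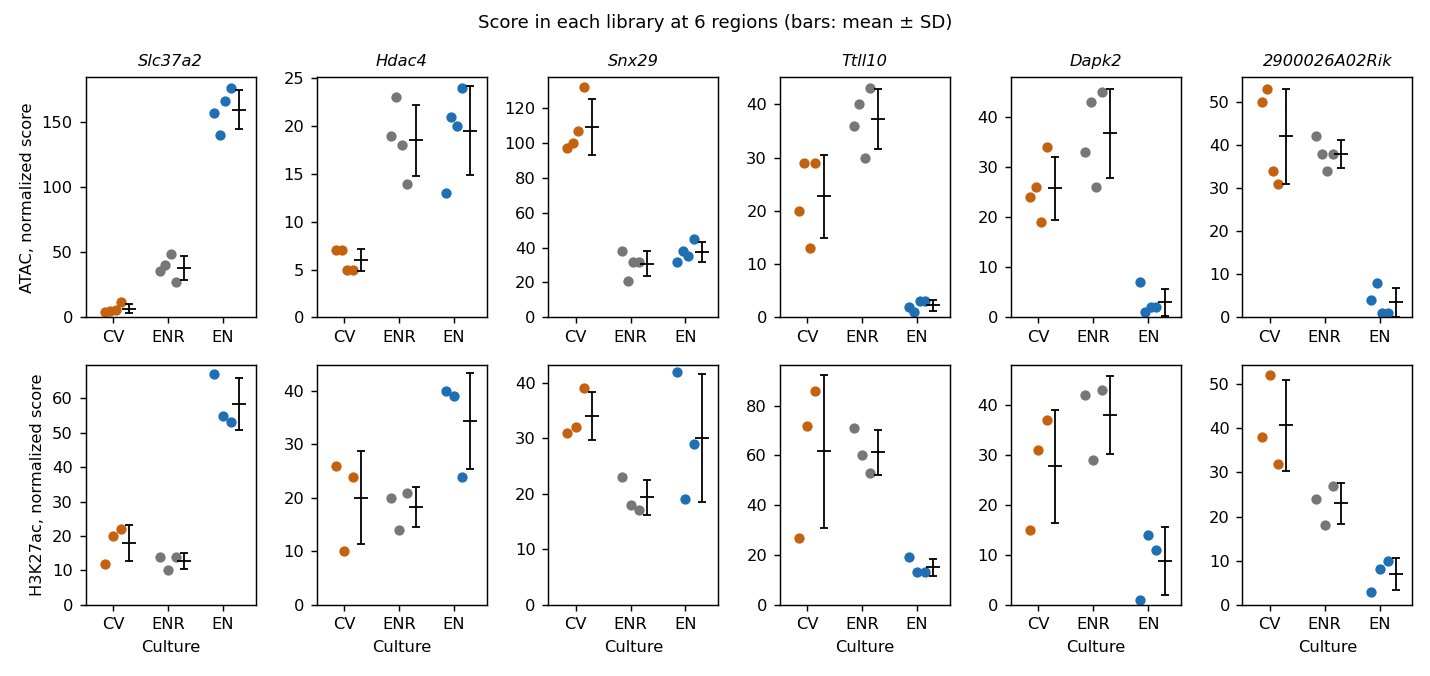
Normalized scores of ATAC (top, 4 libraries per culture) and H3K27ac (bottom, 3 libraries per culture) at 6 regions, each point 1 library and the bars the mean ± SD; vertical axes start at 0 and differ between panels. At Slc37a2 the EN libraries are above the rest in both readouts, and at Ttll10, Dapk2 and 2900026A02Rik they are below it.

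Few regions were called in the promoter and Polycomb marks, whose low levels were part of the choice. In H3K4me3, 1 of the 47 was called between EN and CV, the E130114P18Rik region, with scores of 3, 5 and 7 in CV and 1 in all 3 EN libraries (log2 difference -1.53). Over all regions, 4.90% were called between EN and CV, 6.18% between EN and ENR and 1.13% between CV and ENR, and none of the 47 was called in the latter comparisons (limma; 5 and 12 had an unadjusted p under 0.05). In H3K27me3 none of the 47 was called by limma, beside 0.528% of all regions between EN and CV, 0.0127% between EN and ENR and 0.740% between CV and ENR, and 3, 7 and 4 of the 47 had an unadjusted p under 0.05 in that order. Both marks were low by choice, with means of 1.11 to 2.67 for H3K4me3 and 3.11 to 10.9 for H3K27me3. Large differences could pass uncalled at these levels, since log2 differences down to -1.64 in H3K4me3 between EN and CV and up to 2.05 in H3K27me3 between EN and ENR were not called. Between CV and ENR, H3K4me3 had a median log2 difference of 0.58 with 43 of the 47 above 0. Over all regions the median was 0.33, with 59340 of 77827 above 0. The shift was shared by the regions with 10 to 49 Hnf4g reads (0.58, 147 of 166 above 0) and with 50 or more (0.53, 64 of 71).

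Hnf4g reads were below the average of all regions in CV and, by choice, in EN, and near it in ENR. The 47 regions held 13 of 84340 reads within regions in the CV library (0.0154%, 95% Wilson interval 0.00901 to 0.0264%), 152 of 352600 in ENR (0.0431%, 0.0368 to 0.0505%) and 283 of 1816497 in EN (0.0156%, 0.0139 to 0.0175%). Intervals cover counting error only, since there was 1 library per culture. Per region this was 0.310 times the average of all regions in CV (exact Poisson interval 0.165 to 0.530), 0.866 times in ENR (0.734 to 1.02) and 0.313 times in EN (0.278 to 0.352), the last fixed by the choice. The average rests on regions with up to 33215 reads in EN, and by the median region the 47 held 0, 2 and 6 reads in CV, ENR and EN, beside 0, 1 and 4 over all regions. Regions with 50 or more EN reads held 3.83, 3.24 and 3.99 times the average. In ENR, 12 of the 47 regions had no read and the highest count was 18, at the Tgfa region, which had 6 in EN. The EN library held more reads within regions than the ENR library, and their total sequencing depths were not compared. In 7 regions the ENR count exceeded the EN count, among them Lrig1 with 10 and 9, 2900026A02Rik with 6 and 2 and Sptlc1 with 8 and 5. With 1 library per culture, these differences have no replicate check.

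The nearest genes were more often higher than lower in EN. Of the 47, 35 were among the 8822 genes tested in RNA, each by the transcript with the highest mean count. From CV to EN, 19 were higher and 9 lower (edgeR, adjusted p under 0.01), beside 35.9% higher and 42.3% lower over all genes. From ENR to EN, 22 were higher and 9 lower, beside 36.5% and 38.2%. Between CV and ENR, 10 were higher and 15 lower in CV, beside 31.2% and 30.6%. Of the 18 tested genes nearest to a region with a lower ATAC score in EN than in CV, 7 were higher in EN and 6 lower. Of the 5 nearest to a region with a higher score, 4 were higher and none lower (edgeR; the remaining 1, Hdac4, was not called at a log2 fold of 0.22, adjusted p = 0.086). For EN against ENR, 7 of the 18 genes nearest to a region with a lower score were higher and 8 lower, both genes nearest to a region with a higher score were higher, and of the 15 nearest to a region without a call 13 were higher and 1 lower. Between CV and ENR, 1 of the 7 genes nearest to a region with a lower score in CV was higher and 4 lower, and of the 3 nearest to a region with a higher score 1 was higher and 2 lower.

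Some genes moved with their regions. Slc37a2 had 1.23 ± 0.223 CPM in CV, 0.889 ± 0.219 in ENR and 7.38 ± 0.720 in EN (mean ± SD, n = 4), a log2 fold change of 2.56 from CV to EN (adjusted p = 2.6e-08). The difference between CV and ENR did not pass the test (log2 fold change 0.48 in CV from ENR, adjusted p = 0.23), while the region was more accessible in ENR than in CV. Tfrc fell from 639 ± 29.6 CPM in CV to 246 ± 6.51 in EN (-1.38), beside a fall of its region from 20, 25, 26 and 38 to 19, 5, 5 and 11 in ATAC scores (-1.51, adjusted p = 0.00079). Lrig1 fell from 290.2 ± 10.8 to 132 ± 6.06 CPM (-1.14) and Dapk2 from 65.1 ± 1.76 to 26.9 ± 3.79 CPM (-1.28). Acss2 fell by 0.67 on the log2 scale. Arhgap26, which encodes a GTPase-activating protein, rose from 17.4 ± 1.76 to 56.8 ± 2.55 CPM, beside a higher ATAC score of its region (1.21, adjusted p = 0.0024).

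Others moved against them in some comparisons. 2900026A02Rik rose from 85.5 ± 7.17 CPM in CV to 342 ± 19.4 CPM in EN (2.00, adjusted p = 2.9e-14), while the region in its intron had the largest fall of the 47. Snx29 rose from 5.22 ± 1.30 to 14.7 ± 2.53 CPM (1.48), while its region was most accessible in CV. Between CV and EN, Ezr rose by a log2 fold change of 0.66. Its region had ATAC scores of 12, 14, 13 and 10 in CV and 5, 6, 6 and 11 in EN (-0.77, adjusted p = 0.015), with EN replicate 4 inside the CV range. Slc26a3, the chloride and bicarbonate exchanger of the apical membrane, rose from 87.7 ± 2.81 CPM in CV to 492 ± 25.4 in EN (2.49). The ATAC difference of the region in its intron from CV to EN was not called by limma (0.35, adjusted p = 0.17). Its scores were 29, 27, 26 and 20 in CV, 72, 67, 53 and 66 in ENR, and 21, 37, 35 and 41 in EN. From ENR to EN the region fell (-0.96) while the gene rose (1.80). Between CV and EN, Engase had a log2 fold change of -0.93, while its region had a log2 difference of 0.66 in ATAC that missed the threshold (adjusted p = 0.063). Across the 35 genes, the ATAC and RNA differences from CV to EN had Pearson's r = 0.30 and a Spearman coefficient of 0.17, those from ENR to EN 0.51 and 0.50, and those between CV and ENR 0.19 and 0.21, a description over genes that share libraries. Slc26a3, Arhgap26, Efcab4b and Sptlc1 were named after their values were seen.

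Motifs were counted in the central 300 bases, on both strands, in the 47 regions and in the 94340 regions on annotated chromosomes. AP-1 (TGANTCA, N being any base), the site of Fos and Jun dimers, was in 13 of 47 (27.7%, Wilson interval 16.9 to 41.8%), beside 17.2% of all regions and 28.2% of those with 50 or more Hnf4g reads. CDX (TTTATNG), of the intestinal Cdx1 and Cdx2, was in 11 (23.4%, beside 16.5% of all), KLF (GGGNGTGG) in 9 (19.1%, beside 14.8%) and the E-box CAGCTG in 8 (17.0%, beside 18.7%). FOX (TGTTTAC) and ETS (CNGGAAGT) were in 6 each (12.8%, beside 5.30% and 7.32%), and TEAD (ACATTCC) was in 4 (8.51%, beside 5.11%). The HNF4 letters CAAAGTCCA were in 0 of 47 windows, which allows a share of up to 6.38% (3 windows of 47; the Wilson interval reaches 7.56%), beside 2.28% of all regions, 4.22% of regions with 10 to 49 Hnf4g reads and 5.63% of those with 50 or more. The related nuclear receptor letters CAAAGGTCA were in 1, beside 2.11% of all. A window can match several motifs, but not HNF4 and the nuclear receptor letters in 1 place. Of the 20 intervals for the 47 windows, only that of FOX (5.98 to 25.2%) left out the share in all regions. About 1 of 20 intervals at 95% does so by chance alone. FOX was in 8.43% of regions with 10 to 49 Hnf4g reads and in 4.23% of those with 50 or more. A match is a run of letters and not a bound site.

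The remaining motifs were found in at most 3 of the 47 windows. TCF (CTTTGAT) and GRHL (AACNNGTT) were in 3 each, the letters AGATAAG of the GATA factors in 2, and HNF1 (TTAATNATT), RUNX (TGTGGTT) and CTCF (AGGNGGCAG) in 1 each. SP (GGGGCGGGG), STAT (TTCCNGGAA), NF-kB (GGGANTTCC), NFY (CCAATCA) and YY1 (AAGATGGC) were in none, at shares of 1.30 to 3.92% over all regions. No motif was shared by most of the regions less accessible in EN than in ENR, of which 7 of 27 held AP-1, 7 KLF, 6 CDX and 5 FOX.

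**Figure D5:**
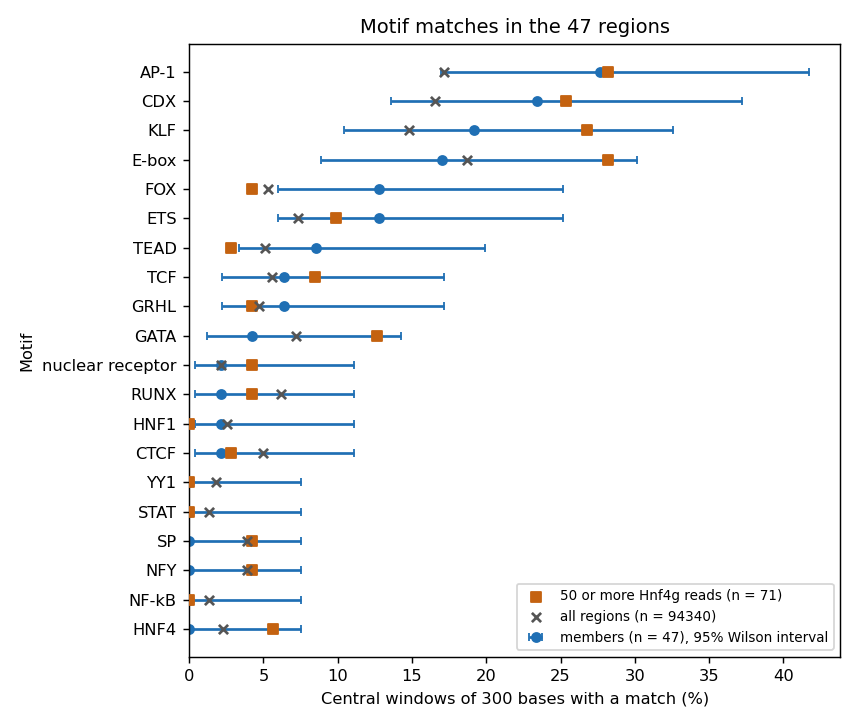
Share of central 300-base windows (horizontal axis, %) with a match to each of 20 motifs (rows), in the 47 regions (blue points with 95% Wilson intervals), in 71 regions of the same histone criteria with 50 or more Hnf4g reads in EN (orange squares) and in all regions (grey crosses). AP-1 leads with 27.7% of the 47, and HNF4 has 0% beside 5.63% of the 71.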

How the data were processed

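ATAC-seq, ChIPmentation and RNA-seq of CV, ENR and EN organoids were analysed from processed tables, with cultures taken from sample titles. For ATAC and histone marks the authors deposited normalized scores per region, rounded to whole numbers, after alignment to mm9 with BWA, duplicate removal with Picard and peak calling with MACS 2.0, and H3K27me3 was counted in peaks extended to 1000 bases. How scores were normalized is not given in the sources used here. For Hnf4g the authors deposited raw counts per region. For RNA the authors deposited expected counts and TPM from kallisto, for transcripts whose proteins had been quantified, and mRNA copy numbers as a further score, not used here. All table columns matched samples, and 10 further histone libraries and the RNA of the Hnf4g knockout and of the ENR WT library were not analysed here.

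Scores above 0 in at least 3 libraries were tested with limma 3.58.1 (trend on the mean) on log2(score + 1), adjusted over all regions and called at 0.05. Rounded expected counts of 9288 transcripts above 0 in at least 4 libraries were tested with edgeR 4.0.16 (quasi-likelihood, TMM) and called at 0.01. RNA libraries held 5630951 to 8859744 counts. Start sites and places came from GENCODE vM1 on mm9. The top of a mark was strictly above the percentile, and region ends are as the files give them. Tests were tried on simulated data. Alternatives covered pseudocount, filter, normalization, trend, thresholds, replicate block, left-out libraries, DESeq2 1.42.0 and the choice of members.

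Members and lists were chosen with earlier results of these data known. Named regions were the 5 with the highest mean H3K27ac, the 5 largest rises and falls from CV to EN in ATAC and in H3K27ac (3 each for ATAC against ENR) among those called without overlap of libraries, and those nearest to genes of 8 lists (stem cell and Wnt, enterocyte, secretory, intestinal transcription factors, AP-1, Yap and fetal-type, Notch, adhesion). The other regions named were chosen after their values were seen. Sequences are the first of each ranking.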

Additional observations from a re-analysis of the deposited data

Results flagged for a closer look

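In groups of 4 libraries at the named regions and their nearest genes, 11 of 111 groups had 1 library whose gap to the nearest other was larger, relative to the group's range, than Dixon's 95% critical value; chance alone gives about 1 in 20 (5%). The cause was not tested in any of them. For ATAC these were EN replicate 4 at the Ezr region with a score of 11, CV replicate 4 at the Mtmr6 region with 28, EN replicate 1 at the Dapk2 region with 7, ENR replicate 2 at the Hadhb region with 2, and CV replicate 1 at the Gm5444 region with 126. The Hadhb value differed from the others by 1 score unit. For RNA these were Ezr in CV replicate 2 with 474 CPM, Mtmr6 in CV replicate 1 with 125 CPM, Shank2 in CV replicate 2 with 6.67 CPM, Slc37a2 in ENR replicate 3 with 1.21 CPM, 2900026A02Rik in EN replicate 1 with 371 CPM and Hadhb in ENR replicate 1 with 416 CPM.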

How the results depend on the processing

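The 26 and 27 regions less accessible in EN than in CV and in ENR stayed at 22 to 27 and 26 to 28 when any 1 library was left out, and stayed within 1.5 times under the other fits at the same threshold. At the study's threshold of 1e-05 they were 7 and 8, with 1 for each other ATAC count. Leaving out 1 library gave 4 to 6 higher in EN than in CV, 1 to 3 higher in EN than in ENR (1 without ENR replicate 2), 3 to 6 higher in CV than in ENR (3 without CV replicate 2, CV replicate 3, ENR replicate 1 or ENR replicate 3) and 8 to 12 lower in CV. Without the trend, 1 was higher in EN than in ENR and 3 in CV than in ENR. Of the 9 regions with under 5 EN reads of Hnf4g, ATAC was higher in EN than in CV in 2 and lower in 3, higher than in ENR in 1 and lower in 4, and higher in CV than in ENR in 0 and lower in 1. Of the 16 with under 10 reads per 1000 bases, it was lower in EN than in CV in 6 and higher in 4, lower than in ENR in 6 and higher in 2, and higher in CV than in ENR in 1 and lower in 3. The cause of the changed balance was not tested.

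H3K27ac calls were less stable. Leaving out 1 library gave 1 to 5 higher and 3 to 8 lower between EN and CV, 0 to 2 higher and 0 to 5 lower between EN and ENR, and 0 to 1 lower between CV and ENR. At the study's threshold of 0.001 none was called. Without the trend, 3 were lower in EN than in CV and 0 were called otherwise, and after quantile normalization 0 were higher in EN than in ENR. That normalization moved the median H3K27ac difference of all regions from -0.14 to -0.02 (EN against CV), from 0.25 to 0.02 (EN against ENR) and from 0.33 to 0.01 (CV against ENR), and that of the 47 from 0.07 to -0.25 for EN against ENR. With under 5 reads, 1 was higher and 3 lower in EN than in CV and 1 each in EN than in ENR, and with under 10 per 1000 bases 2 were higher and 4 lower in EN than in CV and 2 higher and 1 lower than in ENR. The single H3K4me3 call became 0 without the filter, at the study's threshold, in both smaller sets and with percentile ties counted as top (43 members, chosen after seeing the data), 2 after quantile normalization or without the trend, and 0 to 3 when 1 library was left out. H3K27me3 gave 0 throughout.

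The replicate numbers did not pair the libraries in every dataset. In ATAC, same-numbered libraries correlated in their deviations with r from 0.07 to 0.46, with a mean of 0.17 beside -0.06 for other pairs. Of these 12 libraries, 9 correlated best with their own number. Other datasets had negative same-numbered pairs, and the main fits used culture only. With the replicate number as a block, no H3K27ac region of the 94215 was called, which left 0 of the 47. That block left little from which to estimate the spread in H3K27ac, so the loss cannot show whether the calls hold. With the same block H3K4me3 gave 0, and no ATAC or RNA count moved past 1.5 times. RNA counts stayed at 17 to 19 higher and 9 to 10 lower with 1 library left out, and limma on log2(TPM + 1) gave 11 higher. Per 1000 bases, Hnf4g reads in the 47 were 0.665 (ENR) and 0.240 (EN) times the average. In the central 200 bases, nuclear receptor, HNF1 and RUNX letters were in 0% of the 47 and TCF letters in 2.13%. The number of reads within regions and the single library per culture limit the Hnf4g values: 3 reads are 0.00356% of those in the CV library.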
